A study of Mus musculus with 29 samples.

Results

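Ion channel genes were taken by their symbols: potassium channels (Kcn), hyperpolarization-activated channels (Hcn), sodium channels (Scn), calcium channels with their auxiliary subunits (Cacna, Cacnb and Cacng) and chloride channels and transporters of the CLC family (Clcn). Of 10678 genes with values in either brain region, 61 matched: 58 of the 9872 amygdala genes and 27 of the 6080 genes of the medial prefrontal cortex, with 24 in both. Membership followed the symbols alone, but the group itself was chosen with earlier results of these data known. The amygdala members were 32 potassium, 15 calcium, 4 sodium, 6 chloride genes and 1 hyperpolarization-activated gene, Hcn3. In the prefrontal cortex they were 12 potassium, 8 calcium, 6 chloride and 1 sodium gene. Scn2a, Cacna1e and Hcn2, which pyramidal neurons are known to use, were not among the genes analysed here.

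The samples were cells labelled pyramidal neurons, sorted from punched and dissociated tissue of transgenic mice (B6.Cg-Tg(Thy1-YFP)HJrs/J), in which a Thy1 promoter drives a yellow fluorescent protein in a subset of projection neurons. All mice carried this transgene, and the labels give no age. Animals were labelled Res-T or Sus-T, names the labels do not spell out, and each type was sampled without trauma and with trauma, in a study of inefficient fear extinction. Total RNA was amplified with a kit for very small inputs that removes ribosomal RNA. Amygdala values existed for 3 Res-T and 2 Sus-T libraries without trauma and 4 Res-T and 4 Sus-T libraries with trauma. The prefrontal cortex had 4 Res-T and 2 Sus-T libraries without trauma and 3 Res-T and 4 Sus-T libraries with trauma. Another 3 of the 29 samples described had no column in the tables and carry a remark that the submitters removed them. The design text names 9 mice for the amygdala, and the labels do not say which libraries came from separate mice, so p-values measure the spread between these libraries only.

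Deposited values are the authors' normalized expression values in arbitrary units, and their division by transcript length is not given, so levels are compared between libraries and not between genes. Amygdala libraries summed to between 3267967 and 4021272 units and prefrontal libraries to between 2095138 and 2444486, and sequencing depth is unknown. Markers of the labelled cell type were sparse. Camk2a and Nrgn were the 2 of 8 pyramidal neuron markers with values in the amygdala, at 0.00179% to 0.108% of the summed values per library, and 0 of 8 had values in the prefrontal cortex. Slc17a7, Slc17a6, Neurod6, Tbr1 and Neurod2 were without values in both regions. Oligodendrocyte markers had values for 13 of 14 genes in amygdala, where they summed to 1.83% to 6.71%, and for 9 of 14 in prefrontal cortex, where they summed to 2.35% to 8.13%. In bulk samples such as these, fewer cells of a type and less RNA per cell cannot be told apart.

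Neurons fire when sodium channels open, and they repolarize when potassium channels open. Calcium channels turn that voltage change into transmitter release and signalling, and auxiliary subunits set how many pore subunits reach the membrane and how fast they gate. Kcna subunits act at axons and their myelinated stretches, Kcnc subunits in fast-spiking cells and Kcnq subunits as the M-current that restrains repeated firing. Several members are also glial: Kcnj10 and Kcnj16 form the inward rectifier of astrocytes and oligodendrocytes, and Kcnk13 is a microglial two-pore channel. CLC proteins sit at the cell surface (Clcn2) or exchange chloride for protons in endosomes and lysosomes.

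Promoters are shown here because amygdala members called higher and lower in Sus-T had unlike median CpG counts in the bases before their starts. RefSeq promoter entries on GRCm38.p6 matched 41 of the 58 amygdala members. Within the 250 bases before the start, the median number of CpG dinucleotides was 29.5 over 16 members called higher in Sus-T without trauma (lowest 4, highest 50), 8.0 over 5 members called lower (lowest 1, highest 17) and 19.0 over 20 members not called. The same medians over all amygdala genes were 19.0 for genes called higher (n = 959), 17.0 for genes called lower (n = 1155) and 18.0 for genes not called (n = 5603). A gene with several starts was given its start with the most CpG, and over genes with a single start the members' medians were 22.5 (n = 10), 8.0 (n = 5) and 18.0 (n = 13). These are descriptions of few genes, the ranges of members called higher and lower overlap, and the difference was not tested. The 6 windows below belong to the 3 largest rises and the 3 largest falls among called members with a single RefSeq start and no annotated exon on either strand in the window. They are written 5′ to 3′ on the gene's strand in lower case, with every CpG in capitals. The Kcnt2 and Kcnc1 windows end at RefSeq starts that lie before the gene starts given further below.
Kcnt2, chr1:140245468-140245717, plus strand, 10 CpG, rose: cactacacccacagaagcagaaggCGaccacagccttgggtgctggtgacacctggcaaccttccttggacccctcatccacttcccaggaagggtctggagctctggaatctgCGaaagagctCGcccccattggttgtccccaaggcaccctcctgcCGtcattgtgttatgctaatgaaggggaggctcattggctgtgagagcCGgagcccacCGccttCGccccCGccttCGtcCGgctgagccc
Kcnc1, chr7:46396218-46396467, plus strand, 30 CpG, rose: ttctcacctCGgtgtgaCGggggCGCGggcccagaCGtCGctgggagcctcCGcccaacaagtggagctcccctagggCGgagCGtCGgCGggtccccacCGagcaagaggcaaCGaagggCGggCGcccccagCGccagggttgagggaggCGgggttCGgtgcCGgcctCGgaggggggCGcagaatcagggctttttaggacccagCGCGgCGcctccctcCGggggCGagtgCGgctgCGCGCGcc
Cacna1b, chr2:24763153-24763402, minus strand, 29 CpG, rose: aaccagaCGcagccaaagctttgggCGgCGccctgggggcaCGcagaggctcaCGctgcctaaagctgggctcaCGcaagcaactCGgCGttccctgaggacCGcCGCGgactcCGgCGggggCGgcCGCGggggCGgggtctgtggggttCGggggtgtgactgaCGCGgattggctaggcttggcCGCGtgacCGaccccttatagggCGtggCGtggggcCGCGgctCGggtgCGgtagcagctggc
Kcnrg, chr14:61607207-61607456, plus strand, 1 CpG, fell: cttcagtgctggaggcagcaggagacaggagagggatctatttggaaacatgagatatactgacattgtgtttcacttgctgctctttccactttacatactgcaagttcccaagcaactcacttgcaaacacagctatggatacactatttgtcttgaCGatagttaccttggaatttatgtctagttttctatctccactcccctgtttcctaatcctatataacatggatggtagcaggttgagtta
Kcnk13, chr12:99964249-99964498, plus strand, 8 CpG, fell: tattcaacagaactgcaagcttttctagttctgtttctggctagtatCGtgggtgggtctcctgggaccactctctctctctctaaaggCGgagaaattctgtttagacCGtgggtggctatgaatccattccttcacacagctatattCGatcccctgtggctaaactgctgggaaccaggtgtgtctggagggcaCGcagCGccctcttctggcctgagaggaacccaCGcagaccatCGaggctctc
Kcnj2, chr11:111065914-111066163, plus strand, 14 CpG, fell: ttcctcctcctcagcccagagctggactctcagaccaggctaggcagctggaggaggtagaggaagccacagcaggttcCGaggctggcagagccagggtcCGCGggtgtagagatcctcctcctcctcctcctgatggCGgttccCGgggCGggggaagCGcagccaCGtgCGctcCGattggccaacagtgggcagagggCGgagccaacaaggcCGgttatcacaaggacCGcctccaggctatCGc
The Kcnc1 and Cacna1b windows hold the most CpG of the 6 and Kcnrg the fewest, while Kcnt2, which rose, holds fewer than Kcnj2, which fell. On both strands, the GC box GGGGCGGGG was found before 4 of 16 members called higher, 2 of 5 called lower and 3 of 20 not called, beside 23.5% of amygdala genes with an entry. The cyclic AMP response element TGACGTCA was found before 0, 0 and 1 of them, beside 3.15%, and the E-box CACGTG before 0, 1 and 3 of them, beside 10%. None of the motifs searched contains another, and no match says only that these letters are not in this window.

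Without trauma, the comparison of Sus-T with Res-T called more channel genes in the amygdala than any other comparison did. Of 58 members, 22 were higher in Sus-T and 7 were lower, at an adjusted p under 0.05 in limma's moderated test with Benjamini-Hochberg adjustment over all genes. Across all 9872 genes, 27.4% were called, 12.4% higher and 15% lower. The members' median log2 difference was 0.92, beside -0.03 over all genes. No library of one group fell within the range of the other for 31 members with higher and 14 with lower values, beside 58.9% of all genes (27.7% and 31.3%). In order of mean level over the 4 groups, Res-T without trauma was lowest for 33 of 58 members, or 56.9%, beside 35.1% of all genes, and Sus-T without trauma was highest for 27, or 46.6%, beside 31.9%. Scaling all libraries to equal totals moved the all-gene split from 45.2% to 61.5% higher, with the median of all genes at 0.17, and gave 25 members higher and 6 lower.

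**Figure D1:**
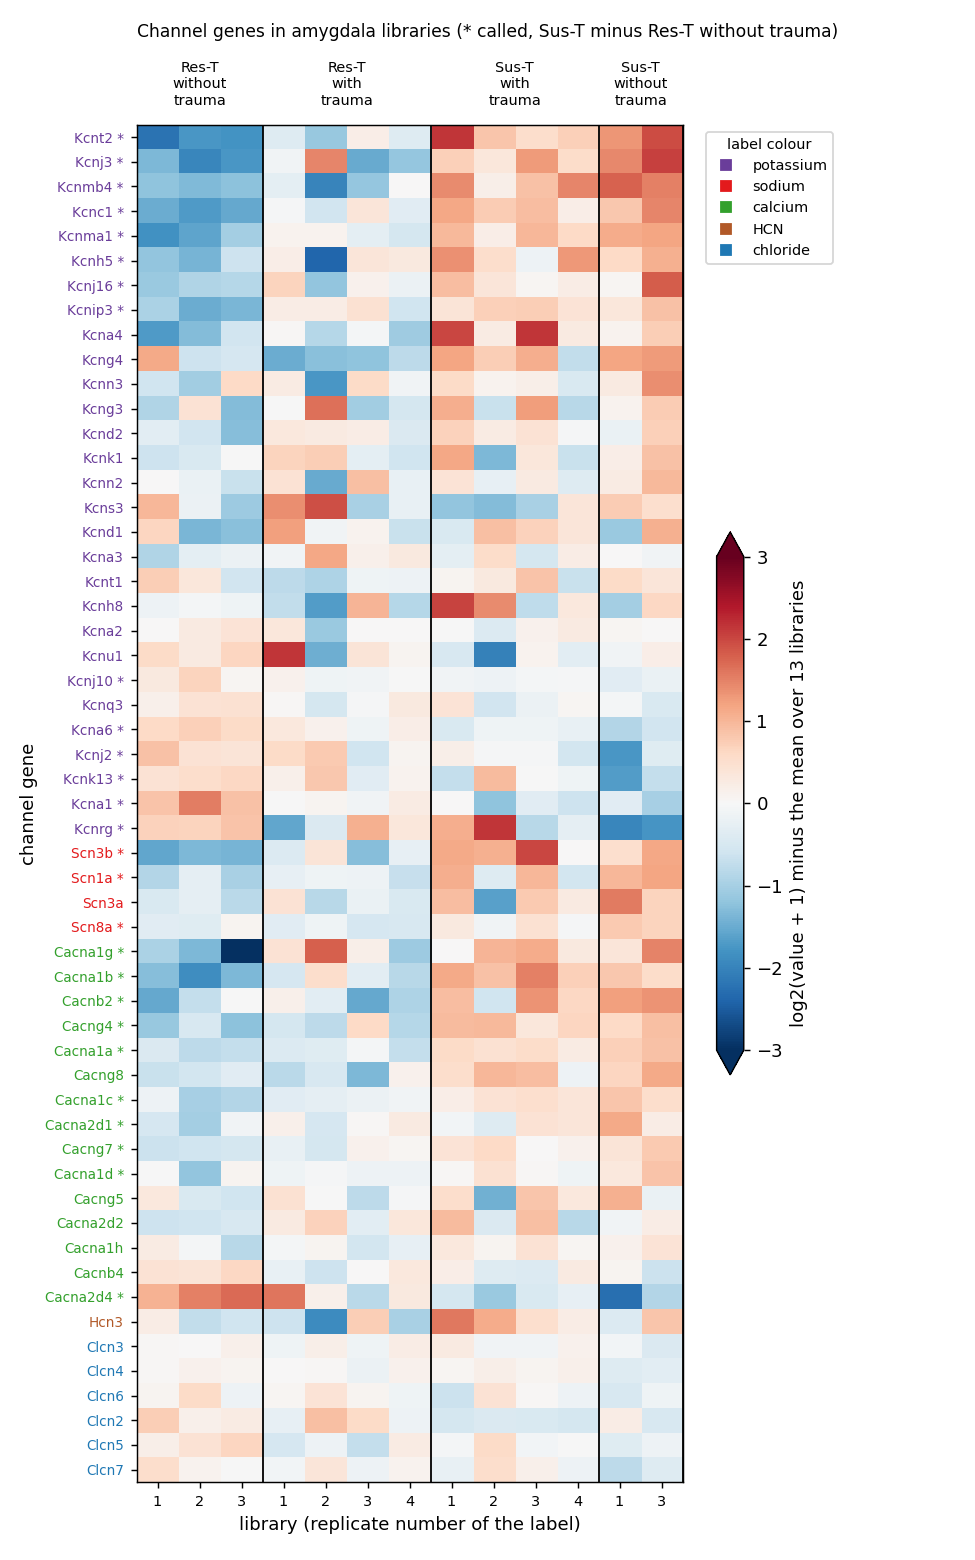
Log2(value + 1) of 55 of the 58 channel genes (rows, grouped by class and sorted by the Sus-T minus Res-T difference without trauma) in 13 amygdala libraries (columns, by group), each row centred on its own mean and the colours limited to 3 on either side. Asterisks mark the 27 of them called without trauma. Res-T without trauma has the lowest mean value for 30 of the 55 and Sus-T without trauma the highest for 26.

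**Figure D2:**
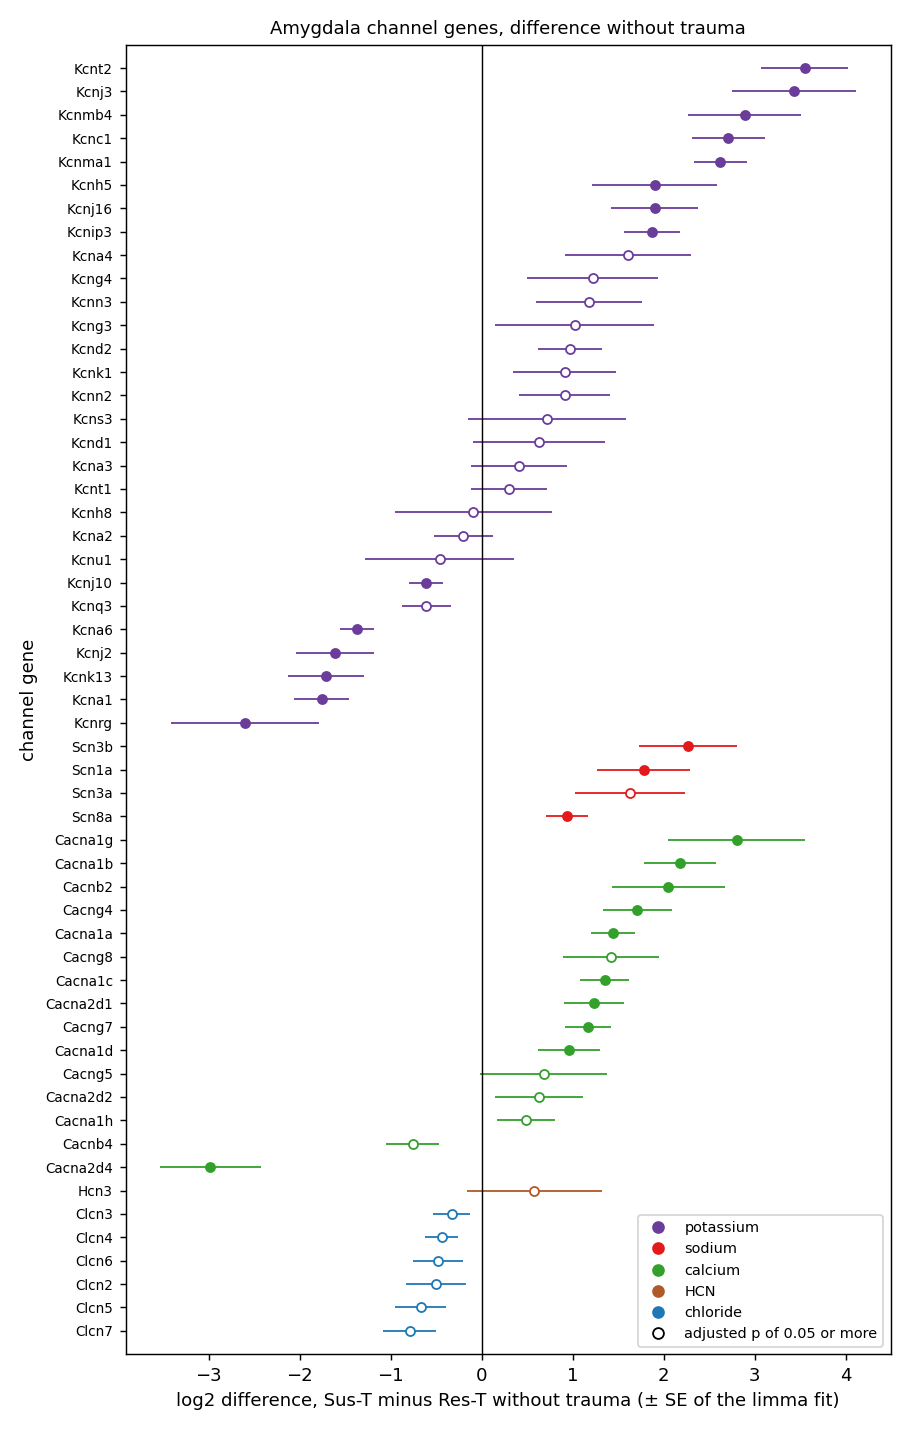
Log2 difference between Sus-T and Res-T amygdala without trauma for 55 of the 58 channel genes, with the standard error of the limma fit as bars (n = 3 Res-T and 2 Sus-T libraries). Filled points have an adjusted p under 0.05: 20 lie right of zero and 7 left of it, and all 6 chloride members lie left of zero with open points.

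Oligodendrocyte markers were lower in the same Sus-T libraries. They summed to 5.74% to 6.71% of all values in Res-T without trauma and to 1.83% to 2.71% in Sus-T without trauma, and 11 of 13 were called lower. Astrocyte markers summed to 0.285% to 0.451% and 1.01% to 1.85%, with 5 of 9 called higher and none lower, and 3 of 3 measured microglial markers were called higher. Both measured pyramidal neuron markers were called higher as well, and their sum was 0.00179% to 0.00234% in Res-T and 0.0546% to 0.09% in Sus-T. The 1 measured interneuron marker was called lower, at -0.73. Of the 3 oligodendrocyte precursor markers 1 was called higher and 2 lower, and of 5 endothelial and mural markers 1 was called higher and 1 lower. With the mean of the oligodendrocyte markers as a covariate in the fit, 1 of the 29 members stayed called, and 51 genes were called in all. The members' median difference was then 1.31, beside -0.01 over all genes. The marker sums of these 2 groups did not overlap, and with the covariate the standard error of Kcnma1 went from 0.29 to 0.81. The part of these cell types in the result was not tested beyond this fit.

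Voltage-gated potassium channel subunits were called in both directions, 4 higher and 2 lower of 17, beside 27.4% of all genes (12.4% higher, 15% lower). Ranges of the 3 Res-T and 2 Sus-T libraries without trauma were apart for 58.9% of all genes. Each note below that these 2 groups did not overlap stands beside that share. Kcnc1, a fast delayed rectifier at chr7:46396497-46438704, was 19.9, 17.1 and 19.1 in Res-T libraries without trauma and 55.6, 38.1, 74.5 and 45.2 in those with it, and 101 and 162 in Sus-T libraries without trauma and 130.1, 98.7, 110.3 and 65.7 in those with it. Both Sus-T libraries without trauma exceeded every Res-T library. Kcnc1 was 6.55-fold higher in Sus-T without trauma (log2 difference 2.71 ± 0.40 SE, adjusted p = 0.00013). Kcnh5, an ether-à-go-go channel, was 18.9, 16.2 and 28.1 in Res-T and 67.2 and 93.5 in Sus-T libraries without trauma. These did not overlap. Kcnh5 was 3.73-fold higher in Sus-T without trauma (log2 difference 1.90 ± 0.69 SE, adjusted p = 0.0496).

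The 2 Kv subunits called lower are neighbours on chromosome 6. Kcna6, a Kv1 subunit at chr6:126708329-126740674, was 1720.0, 1864 and 1679 in Res-T libraries without trauma and 1403, 1235, 1036 and 1284 in those with it, and 609 and 753 in Sus-T libraries without trauma and 816, 1029, 1023 and 973 in those with it. All 6 Sus-T libraries stood below all 7 Res-T libraries. Kcna6 was 2.59-fold lower in Sus-T without trauma (log2 difference -1.37 ± 0.19 SE, adjusted p = 7.3e-05). Kcna1, the Kv1 subunit of axons beside nodes of Ranvier at chr6:126640397-126646384, was 1288, 2062 and 1315 in Res-T libraries without trauma and 713, 755, 659.9 and 846 in those with it, and 559 and 359 in Sus-T libraries without trauma and 719, 309.9, 566 and 466 in those with it. The 3 Res-T libraries without trauma were the highest of all 13. Kcna1 was 3.38-fold lower in Sus-T without trauma (log2 difference -1.76 ± 0.30 SE, adjusted p = 0.00041). The 2 genes lie 61.9 kb apart on the minus strand. Kcna2, their partner in axonal Kv1 channels, was 864, 1041 and 1141 in Res-T and 892 and 866 in Sus-T libraries without trauma. Those ranges overlap, and the log2 difference was -0.20 ± 0.32 (SE). With the oligodendrocyte covariate the differences of Kcna1 and Kcna6 were -1.93 ± 0.85 and -1.05 ± 0.51 (SE), and neither stayed called. Both kept their sign, as did all but 2 of the 29 called members.

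**Figure D3:**
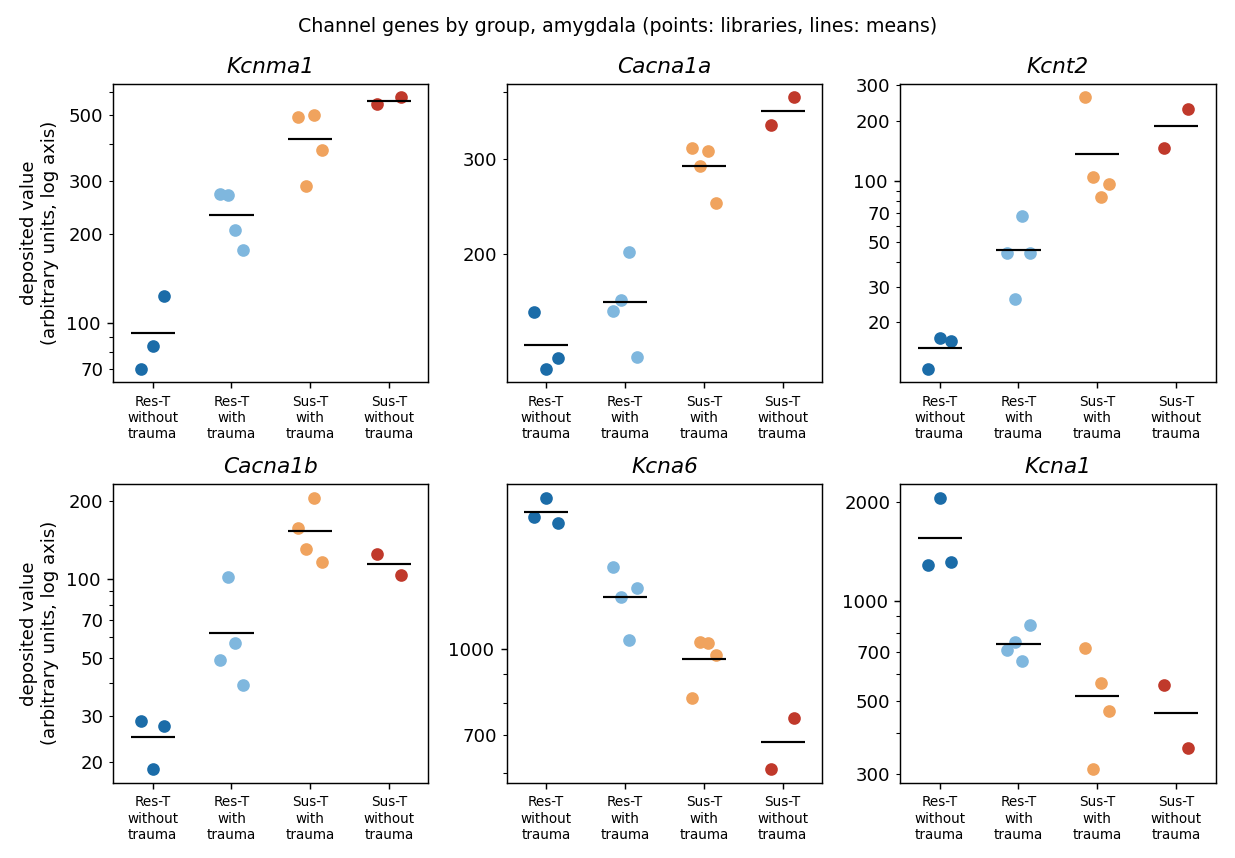
Deposited values (arbitrary units, log axis) of 6 channel genes in the 13 amygdala libraries, as points by group with a line at each group mean. Kcnma1, Cacna1a, Kcnt2 and Cacna1b have their lowest group mean in Res-T without trauma and lie above every Res-T library in all 6 Sus-T libraries, and Kcna6 shows the reverse order.

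Other Kv members were not called. Kcnd2, the A-type channel of dendrites, was 116, 96.7 and 58.6 in Res-T and 124 and 236 in Sus-T libraries without trauma. It was higher in both Sus-T libraries, and its difference of 0.97 ± 0.35 (SE) had an adjusted p of 0.0507, the nearest to the threshold among members not called. Kcnq3, a subunit of the M-channel, was 1319, 1606 and 1630.0 in Res-T and 1136 and 868 in Sus-T libraries without trauma. Kcnq3 was lower in both, with a difference of -0.61 ± 0.27 (SE) and an adjusted p of 0.1. Kcna3, Kcna4, Kcnd1, Kcng3, Kcng4, Kcnh8 and Kcns3 had differences from -0.09 for Kcnh8 to 1.61 for Kcna4 and adjusted p from 0.0912 to 0.955.

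Channels gated by calcium or sodium inside the cell included the 2 members with the smallest p. Kcnma1, the large-conductance BK channel at chr14:23289431-24014491, was 70.4, 83.6 and 124 in Res-T libraries without trauma and 272, 270.1, 206 and 176 in those with it, and 544 and 575 in Sus-T libraries without trauma and 492, 288, 501 and 381 in those with it. Every Sus-T library exceeded every Res-T library, and Res-T without trauma held the 3 lowest values. Kcnma1 was 6.17-fold higher in Sus-T without trauma (log2 difference 2.62 ± 0.29 SE, adjusted p = 1.7e-05). Kcnt2, a sodium-activated potassium channel at chr1:140246158-140612067, was 11.8, 16.8 and 16.1 in Res-T libraries without trauma and 44.1, 26, 67.4 and 44.2 in those with it, and 147 and 229 in Sus-T libraries without trauma and 261, 105, 84 and 97.4 in those with it. Here too the Sus-T and Res-T libraries did not overlap. Kcnt2 was 11.7-fold higher in Sus-T without trauma (log2 difference 3.55 ± 0.48 SE, adjusted p = 6.8e-05). Its relative Kcnt1 was 218, 163 and 86.7 in Res-T and 192 and 167 in Sus-T libraries without trauma. The Kcnt1 ranges overlap, with a difference of 0.30 ± 0.42 (SE). Kcnn2 and Kcnn3, the small-conductance calcium-activated channels, had differences of 0.91 ± 0.50 and 1.18 ± 0.58 (SE) and were not called. Kcnu1, listed here by gene family and not by its gating, was not called either, at -0.46 ± 0.82 (SE).

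Auxiliary and regulatory potassium channel genes were all called, 2 higher and 1 lower of 3, beside 27.4% of all genes (12.4% higher, 15% lower). Kcnmb4, the neuronal beta subunit of BK channels at chr10:116417861-116473878, was 7.93, 7.29 and 7.75 in Res-T libraries without trauma and 15.9, 4.20, 8.16 and 19.9 in those with it, and 68.9 and 57.5 in Sus-T libraries without trauma and 54.2, 22.3, 36.7 and 55.6 in those with it. The Sus-T libraries lay above the Res-T libraries in both conditions. Kcnmb4 was 7.39-fold higher in Sus-T without trauma (log2 difference 2.89 ± 0.62 SE, adjusted p = 0.00222). Kcnip3, a calcium sensor that binds Kv4 channels, was 78, 53.4 and 57.5 in Res-T and 191 and 278 in Sus-T libraries without trauma. These did not overlap. Kcnip3 was 3.66-fold higher in Sus-T without trauma (log2 difference 1.87 ± 0.31 SE, adjusted p = 0.00032). Kcnrg, a regulator of Kv assembly, was 30.6, 30.02 and 34.6 in Res-T and 4.05 and 4.73 in Sus-T libraries without trauma. Both Sus-T libraries were under 5 units, near the region's lowest value of 1.35. Kcnrg was 6.07-fold lower in Sus-T without trauma (log2 difference -2.60 ± 0.81 SE, adjusted p = 0.0237).

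Inward rectifiers divided evenly, 2 higher and 2 lower of 4, beside 12.4% and 15% of all genes. Kcnj3, a G protein-gated channel subunit, was 12, 7.36 and 8.76 in Res-T and 88.1 and 134 in Sus-T libraries without trauma. The groups did not overlap. Kcnj3 was 10.8-fold higher in Sus-T without trauma (log2 difference 3.43 ± 0.68 SE, adjusted p = 0.00124). Kcnj16, a glial rectifier subunit, was 90.7, 105 and 109 in Res-T and 207 and 700.1 in Sus-T libraries without trauma. Sus-T replicate 3 was the highest of all 13 libraries. Kcnj16 was 3.74-fold higher in Sus-T without trauma (log2 difference 1.90 ± 0.48 SE, adjusted p = 0.0074). Kcnj2, a strong inward rectifier, was 191, 142 and 137 in Res-T and 30.5 and 81.4 in Sus-T libraries without trauma. Both Sus-T libraries were below the 3 Res-T libraries. Kcnj2 was 3.06-fold lower in Sus-T without trauma (log2 difference -1.61 ± 0.43 SE, adjusted p = 0.00964). Kcnj10, the glial potassium buffering channel, was 2925, 3810.0 and 2502 in Res-T and 1892 and 2099 in Sus-T libraries without trauma. All 3 Res-T values exceeded both Sus-T values. Kcnj10 was 1.52-fold lower in Sus-T without trauma (log2 difference -0.61 ± 0.19 SE, adjusted p = 0.0232). Kcnj16 and Kcnj2, which moved in opposite directions, lie 38.2 kb apart on the plus strand of chromosome 11. Among two-pore channels, Kcnk13 fell and Kcnk1 was not called. Kcnk13 was 193, 207 and 219.7 in Res-T and 44.3 and 87.2 in Sus-T libraries without trauma. Kcnk13 was 3.28-fold lower in Sus-T without trauma (log2 difference -1.71 ± 0.42 SE, adjusted p = 0.00539).

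All 4 measured sodium channel members lay higher in Sus-T without trauma. The test called 3 of them, beside 12.4% of all genes called higher. Scn8a, the pore subunit that starts the action potential at the axon initial segment, was 295, 287 and 394 in Res-T and 638 and 595 in Sus-T libraries without trauma. Scn8a was 1.91-fold higher in Sus-T without trauma (log2 difference 0.94 ± 0.23 SE, adjusted p = 0.00538). Scn1a, a pore subunit prominent in interneurons, was 24, 37 and 22.1 in Res-T and 89.5 and 102 in Sus-T libraries without trauma. Scn1a was 3.44-fold higher in Sus-T without trauma (log2 difference 1.78 ± 0.51 SE, adjusted p = 0.0148). Scn3b, a beta subunit at chr9:40269217-40291618, was 14.9, 17.2 and 16.7 in Res-T libraries without trauma and 33.8, 59.4, 18.3 and 38.2 in those with it, and 65.1 and 103 in Sus-T libraries without trauma and 101, 96.5, 185 and 45.7 in those with it. Its 3 lowest values were those of Res-T without trauma. Scn3b was 4.81-fold higher in Sus-T without trauma (log2 difference 2.27 ± 0.54 SE, adjusted p = 0.00489). Scn3a, a pore subunit of the immature brain, was 48.1, 54.5 and 37.3 in Res-T and 198 and 105 in Sus-T libraries without trauma. Its difference of 1.63 ± 0.60 (SE) missed the threshold, with an adjusted p of 0.0516.

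Calcium channel pore subunits were called higher for 5 of 6, beside 12.4% of all genes. Cacna1a, the P/Q-type channel of nerve terminals at chr8:84388440-84640246, was 156, 123 and 129 in Res-T libraries without trauma and 157, 165, 202 and 129 in those with it, and 348 and 391 in Sus-T libraries without trauma and 314, 292, 311 and 249 in those with it. All 6 Sus-T libraries exceeded all 7 Res-T libraries. Cacna1a was 2.71-fold higher in Sus-T without trauma (log2 difference 1.44 ± 0.24 SE, adjusted p = 0.00029). Cacna1b, the N-type channel of nerve terminals at chr2:24603887-24763152, was 28.7, 18.7 and 27.3 in Res-T libraries without trauma and 49.2, 102, 57 and 39.2 in those with it, and 125 and 104 in Sus-T libraries without trauma and 157, 131, 205 and 116 in those with it. The same separation held. Cacna1b was 4.52-fold higher in Sus-T without trauma (log2 difference 2.18 ± 0.40 SE, adjusted p = 0.00074). Cacna1c, the L-type channel that couples firing to gene expression at chr6:118587240-119196418, was 153, 84.6 and 91.4 in Res-T libraries without trauma and 134, 139, 149.6 and 157 in those with it, and 302 and 244 in Sus-T libraries without trauma and 193, 229, 239 and 218 in those with it. This gene also separated the Sus-T libraries from the Res-T libraries. Cacna1c was 2.55-fold higher in Sus-T without trauma (log2 difference 1.35 ± 0.27 SE, adjusted p = 0.00119). The L-type Cacna1d and the T-type Cacna1g rose too. Cacna1d was 1.95-fold higher in Sus-T without trauma (log2 difference 0.96 ± 0.34 SE, adjusted p = 0.0416). Cacna1g was 20.9, 15.3 and 3.17 in Res-T and 52.8 and 117 in Sus-T libraries without trauma. Cacna1g was 6.97-fold higher in Sus-T without trauma (log2 difference 2.80 ± 0.75 SE, adjusted p = 0.0102). The T-type Cacna1h was not called, at 0.49 ± 0.32 (SE).

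Auxiliary calcium channel subunits divided. Cacna2d1, an alpha2-delta subunit that carries pore subunits to the terminal, was 217, 153 and 288 in Res-T and 682 and 365 in Sus-T libraries without trauma. These did not overlap. Cacna2d1 was 2.34-fold higher in Sus-T without trauma (log2 difference 1.23 ± 0.33 SE, adjusted p = 0.0105). Cacna2d4, an alpha2-delta subunit best known from the retina at chr6:119236526-119352407, was 147, 203 and 231 in Res-T libraries without trauma and 216, 78, 39.7 and 87.2 in those with it, and 14.1 and 38.2 in Sus-T libraries without trauma and 48.4, 31.9, 50.8 and 59.4 in those with it. Both Sus-T libraries without trauma were below all 7 Res-T libraries. Cacna2d4 was 7.87-fold lower in Sus-T without trauma (log2 difference -2.98 ± 0.55 SE, adjusted p = 0.00073). Cacna2d4 lies 40.1 kb from Cacna1c, on the opposite strand, and the 2 moved in opposite directions. The beta subunit Cacnb2 was 11, 19.96 and 33.3 in Res-T and 80.01 and 87.4 in Sus-T libraries without trauma. Cacnb2 was 4.13-fold higher in Sus-T without trauma (log2 difference 2.05 ± 0.62 SE, adjusted p = 0.0209). The beta subunit Cacnb4 was 755, 722 and 852 in Res-T and 587 and 355 in Sus-T libraries without trauma. It was lower in both Sus-T libraries, at -0.76 ± 0.29 (SE), and missed the threshold. In the gamma family, whose members of type 4, 5, 7 and 8 are known as partners of AMPA receptors, Cacng4 and Cacng7 rose. Cacng4 was 3.27-fold higher in Sus-T without trauma (log2 difference 1.71 ± 0.38 SE, adjusted p = 0.00285). Cacng7 was 2.25-fold higher in Sus-T without trauma (log2 difference 1.17 ± 0.25 SE, adjusted p = 0.00208). Cacng8, 22.5 kb from Cacng7, and Cacng5, 80.0 kb from Cacng4, were not called, at 1.42 ± 0.53 and 0.68 ± 0.70 (SE).

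With the oligodendrocyte covariate, 2 called members changed sign. The difference of Cacna2d1 was then -1.35 ± 0.62 (SE, adjusted p = 0.297) and that of Kcnj2 was 1.37 ± 0.90 (SE, adjusted p = 0.48). The difference of Cacna2d4 went from -2.98 to -1.25 and that of Kcnk13 from -1.71 to -0.17. Neither set of values shows which cells the transcripts came from.

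**Figure D4:**
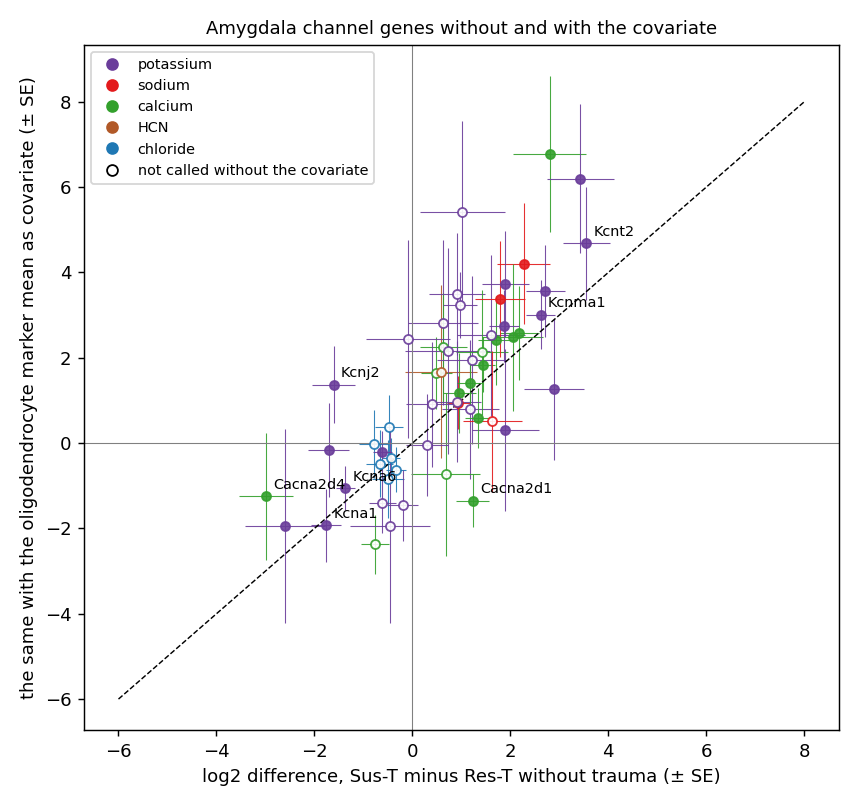
Log2 difference of 55 of the 58 amygdala channel genes between Sus-T and Res-T without trauma (horizontal) against the same difference with the oligodendrocyte marker mean as covariate (vertical), each with its standard error. The dashed line marks equality; of the 27 called members drawn, Cacna2d1 and Kcnj2 lie on opposite sides of zero in the 2 fits.

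Chloride channels and transporters showed no called difference, beside 27.4% of all genes called. All 6 members had differences below zero, with a median of -0.49, and their adjusted p ran from 0.0557 for Clcn7 to 0.285 for Clcn2. Clcn3, an endosomal exchanger also found on synaptic vesicles, was 1116, 1108 and 1209 in Res-T and 1034 and 804 in Sus-T libraries without trauma. Those groups did not overlap, and the difference was -0.33 ± 0.20 (SE). Clcn7, the lysosomal exchanger, was 197, 148 and 136 in Res-T and 79.8 and 105 in Sus-T libraries without trauma. Its difference was -0.79 ± 0.29 (SE). Hcn3, the one pacemaker channel with values, had a difference of 0.58 ± 0.74 (SE).

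Gene length and gene position gave a further description. The members called higher spanned a median of 161 kb on the genome (n = 22), those called lower 32.3 kb (n = 7) and those not called 45.9 kb (n = 29). Over all amygdala genes the medians were 34.4, 37.5 and 25.8 kb. Among 7 pairs of members whose gene bodies lie within 250 kb of each other, 1 pair was called in the same direction (Kcna1 and Kcna6) and 2 in opposite directions (Kcnj16 with Kcnj2, Cacna1c with Cacna2d4).

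With trauma, no amygdala member was called between Sus-T and Res-T, and neither was any other gene (0.0% of 9872). At an unadjusted p under 0.05 there were 24 of 58 members, beside 1142 genes in all. The members' median was 0.37, beside 0.01 over all genes, and 44 of 58 differences were above zero. The groups did not overlap for 10 members higher and 2 lower in Sus-T, beside 5.75% of all genes (3.46% and 2.29%). The difference of Cacna1a was 0.84 ± 0.18 (SE, adjusted p = 0.0829), that of Cacna1b 1.34 ± 0.31 (SE, adjusted p = 0.103) and that of Kcnt2 1.49 ± 0.38 (SE, adjusted p = 0.131). All 4 Sus-T libraries exceeded all 4 Res-T libraries for these genes. The largest difference was that of Kcnmb4, 1.84 ± 0.48 (SE, adjusted p = 0.141), and the lowest that of Kcns3, -1.31 ± 0.68 (SE, adjusted p = 0.463). Leaving out Res-T replicate 2 brought Cacna1b past the threshold, and leaving out Sus-T replicate 4 or adding the oligodendrocyte covariate gave 1 called member in each case, beside 12, 11 and 18 genes in all, in that order.

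Over both conditions, the Sus-T libraries of the amygdala lay wholly above the Res-T libraries for 8 members, among them Cacna1a, Cacna1b, Cacna1c, Kcna4, Kcnma1, Kcnmb4 and Kcnt2. The share was 8 of 58, beside 2.39% of all genes. Kcna4, a fast-inactivating Kv1 channel not called in either condition, was 3.98, 5.57 and 9.88 in Res-T libraries without trauma and 15.7, 7.99, 14.4 and 6.70 in those with it, and 16.4 and 25.8 in Sus-T libraries without trauma and 63.7, 18.1, 71 and 18.6 in those with it. Kcna6 was the 1 member for which every Sus-T library lay below every Res-T library, beside 1.3% of all genes.

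In Res-T amygdala, libraries with trauma differed from those without it for 8 members, 7 higher and 1 lower, beside 6.18% of all genes (3.3% higher, 2.88% lower). The ranges were apart for 10 members with higher and 4 with lower values, beside 23.1% of all genes (9.68% and 13.5%). This comparison shares its 3 libraries without trauma with the comparison of Sus-T and Res-T above, so the values are given side by side and are not independent. Kcnma1 rose 2.51-fold (log2 1.33 ± 0.24 SE, adjusted p = 0.00976), from 70.4, 83.6 and 124 to 272, 270.1, 206 and 176. Kcnip3 rose 2.54-fold (1.34 ± 0.26 SE, adjusted p = 0.0106), from 78, 53.4 and 57.5 to 177, 177, 207 and 99.4. Kcnc1 rose 2.68-fold (1.42 ± 0.33 SE, adjusted p = 0.0198), from 19.9, 17.1 and 19.1 to 55.6, 38.1, 74.5 and 45.2. No value with trauma fell within the range without trauma for these genes. Kcnt2 (1.49 ± 0.41 SE, adjusted p = 0.0378), Cacna1b (1.21 ± 0.34 SE, adjusted p = 0.0407) and Cacna1g (2.21 ± 0.63 SE, adjusted p = 0.045) rose as well, and for Cacna1g the groups overlapped. Kcna1 fell 2.05-fold (-1.03 ± 0.25 SE, adjusted p = 0.0233), from 1288, 2062 and 1315 to 713, 755, 660 and 846. The lowest difference was that of Kcng4, which did not pass, at -1.19 ± 0.60 (SE). Kcna6 missed the threshold at -0.51 ± 0.16 (SE, adjusted p = 0.0612).

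The Res-T trauma count rests on few libraries. Leaving out Res-T replicate 1 or 2 without trauma gave 1 called member, replicate 3 gave 2, Res-T replicate 3 with trauma gave 3, and Res-T replicate 1 or 2 with trauma gave 5, of which 4 and 5 were among the 8 above. The share of all genes called was 1.02%, 1.44% and 1.65% without Res-T replicates 1, 2 and 3 without trauma. It was 4.13%, 6.34% and 3.26% without Res-T replicates 1, 2 and 3 with trauma. A pseudocount of 10 or a fit of the 2 groups alone gave 5 members each, beside 6.21% and 6.4% of all genes. Equal library totals moved the all-gene split from 53.4% to 79.6% higher (70.8% under quantile normalization), with the median of all genes at 0.10. Oligodendrocyte markers summed to 5.74% to 6.71% without trauma and 4.29% to 5.43% with trauma in Res-T, and 0 of 13 were called. Of the pyramidal neuron markers 1 of 2 was called higher, and their sum went from 0.00179% to 0.00234% without trauma to 0.00793% to 0.0302% with it. Of the astrocyte markers 1 of 9 was called higher (0.285% to 0.451% and 0.27% to 0.777%), and of the oligodendrocyte precursor markers 1 of 3 was called lower (0.0823% to 0.12% and 0.0688% to 0.104%). The part of these markers in the result was not tested. With the oligodendrocyte mean as covariate, 8 members were called, 5 of them among the 8 above, beside 6.26% of all genes.

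In Sus-T amygdala no member was called between trauma and no trauma, beside 0.0304% of all genes (0.0203% higher, 0.0101% lower). The ranges were apart for 6 members with higher and 7 with lower values, beside 20.4% of all genes (12.6% and 7.77%). At an unadjusted p under 0.05 there were 7 of 58 members and 1168 genes in all, and the members' median was -0.06. Kcnrg had the smallest p and the largest difference, 2.40 ± 0.77 (SE, adjusted p = 0.188), followed by Kcnk13 (1.2 ± 0.39 SE, adjusted p = 0.198), Clcn4 (0.48 ± 0.17 SE, adjusted p = 0.235) and Kcna6 (0.50 ± 0.18 SE, adjusted p = 0.257). Kcns3 had the lowest difference, -1.41 ± 0.83 (SE). Kcnma1 was 560 ± 21.9 (SD, n = 2) without trauma and 416 ± 101 (SD, n = 4) with trauma, and Kcnc1 was 131 ± 43 and 101 ± 27.

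For 4 of 58 amygdala members, or 6.9%, the trauma effect was not the same in Sus-T as in Res-T. That share is near the 6.74% of all genes called (4.76% higher, 1.98% lower). This contrast uses all 4 groups and shares libraries with each comparison above. Kcnma1 (-1.79 ± 0.37 SE, adjusted p = 0.00934), Kcnc1 (-1.80 ± 0.51 SE, adjusted p = 0.0414) and Kcnip3 (-1.39 ± 0.40 SE, adjusted p = 0.0439) had a lower trauma effect in Sus-T. Their effects in Res-T were 1.33, 1.42 and 1.34 on the log2 scale, and those in Sus-T were -0.46, -0.37 and -0.05. Kcna6 had a higher one (1.01 ± 0.24 SE, adjusted p = 0.0189): its mean went from 1750 to 1240 with trauma in Res-T and from 681 to 960 in Sus-T. Kcnt2 (-2.06 ± 0.61 SE, adjusted p = 0.0519) missed the threshold. The largest positive difference was that of Kcnrg, 3.28 ± 1.02 (SE, adjusted p = 0.0619), and the largest negative that of Cacna1g, -2.52 ± 0.95 (SE, adjusted p = 0.115). The members' median was -0.59, beside 0.02 over all genes. Leaving out Sus-T replicate 1 without trauma gave 0 called members, Res-T replicate 2 without trauma 1, and Res-T replicate 1 or 3 without trauma or Sus-T replicate 4 with trauma 2 each. These fits called 0.598%, 3.44%, 3.44%, 3.84% and 5.4% of all genes, in that order. Kcna6 was not called higher after scaling: under equal library totals 0 members were higher and 4 lower, under quantile normalization 0 and 3, and the all-gene split went from 70.7% to 39.9% higher (57.8% under quantile normalization), with the median of all genes at -0.21. Of the 13 measured oligodendrocyte markers 11 were called higher in the same contrast, as was 1 of 3 precursor markers, and 1 of 2 pyramidal neuron and 1 of 5 endothelial and mural markers were called lower. With the oligodendrocyte mean as covariate 0 members and 2 genes were called.

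In the prefrontal cortex, the comparison of Sus-T and Res-T had calls with trauma and none without it. The comparison without trauma held 2 Sus-T libraries, and the difference between the trauma effects called 0 of 6080 genes. A dependence on trauma is therefore not shown. With trauma, 4 of 27 members were higher and 2 lower, or 22.2%. That share is near the 23.0% of all 6080 genes called (14% higher, 8.93% lower). The members' median was 0.44, beside 0.15 over all genes. The groups did not overlap for 8 members higher and 3 lower, beside 40.7% of all genes (24.4% and 16.3%). Each region's tables were normalized separately, so levels are not compared between regions.

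Kcnb2, a delayed rectifier, with values in this region only, was 63.4, 68.5, 14 and 29.3 in Res-T libraries without trauma and 4.50, 5.38 and 1.61 in those with it, and 52.1 and 49.6 in Sus-T libraries without trauma and 35.7, 77.3, 55.8 and 139 in those with it. The 3 Res-T libraries with trauma were below all the others and near the region's lowest value of 1.26. Kcnb2 was 15.3-fold higher in Sus-T with trauma (log2 difference 3.94 ± 0.63 SE, adjusted p = 0.00165). Cacna1c was 97.5, 27.8, 132 and 31.5 in Res-T libraries without trauma and 31.4, 35.7 and 18 in those with it, and 179 and 140.3 in Sus-T libraries without trauma and 298, 241, 169.7 and 172 in those with it. All 6 Sus-T libraries exceeded all 7 Res-T libraries. Cacna1c was 7.6-fold higher in Sus-T with trauma (log2 difference 2.93 ± 0.49 SE, adjusted p = 0.00191). Kcnk10, a mechanosensitive two-pore channel, was 22.9, 4.02, 29.4 and 11.1 in Res-T libraries without trauma and 8.15, 1.66 and 17 in those with it, and 29 and 45.6 in Sus-T libraries without trauma and 97.2, 108, 31.6 and 36.6 in those with it. With trauma the groups did not overlap. Kcnk10 was 7.93-fold higher in Sus-T with trauma (log2 difference 2.99 ± 0.76 SE, adjusted p = 0.0113). Cacna2d1 was 529, 634, 313 and 333 in Res-T libraries without trauma and 267, 324 and 187 in those with it, and 297 and 583 in Sus-T libraries without trauma and 373, 518, 627 and 509.5 in those with it. The ranges with trauma did not overlap either, while the groups without trauma did. Cacna2d1 was 1.97-fold higher in Sus-T with trauma (log2 difference 0.98 ± 0.30 SE, adjusted p = 0.0283). Kcna6 was 734, 507, 760.3 and 975 in Res-T libraries without trauma and 1149, 1435 and 1073 in those with it, and 738 and 514 in Sus-T libraries without trauma and 619, 672, 623 and 844 in those with it. The 3 Res-T libraries with trauma were the highest of the 13. Kcna6 was 1.77-fold lower in Sus-T with trauma (log2 difference -0.82 ± 0.23 SE, adjusted p = 0.0167). Clcn5, an endosomal exchanger, was 159, 186, 269 and 259 in Res-T libraries without trauma and 341, 344 and 377 in those with it, and 214 and 512 in Sus-T libraries without trauma and 159, 221, 151 and 266 in those with it. Sus-T replicate 3 without trauma was the highest of all. Clcn5 was 1.82-fold lower in Sus-T with trauma (log2 difference -0.87 ± 0.31 SE, adjusted p = 0.0494).

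**Figure D5:**
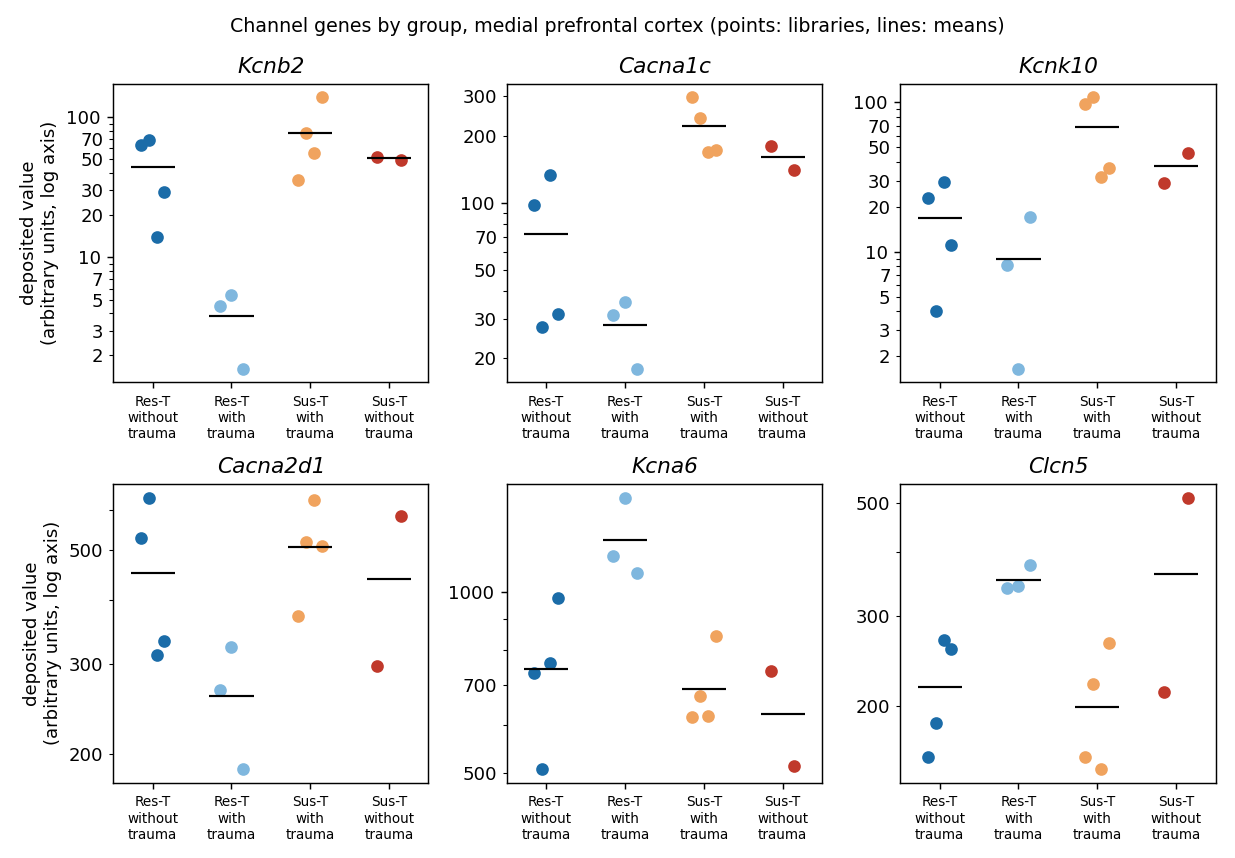
Deposited values (arbitrary units, log axis) of the 6 channel genes called between Sus-T and Res-T with trauma in the prefrontal cortex, as points for 13 libraries by group with a line at each group mean. The 3 Res-T libraries with trauma lie below the 4 Sus-T libraries with trauma for Kcnb2, Cacna1c, Kcnk10 and Cacna2d1 and above them for Kcna6 and Clcn5.

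Another 3 members lay just outside the threshold: Cacnb2 (2.15 ± 0.77 SE, adjusted p = 0.0533), Cacng4 (1.36 ± 0.49 SE, adjusted p = 0.0536) and Cacnb4 (0.56 ± 0.20 SE, adjusted p = 0.0551). All 8 calcium channel members had differences above zero, with a median of 1.11, and 2 passed. Scn3b, the 1 sodium channel member, was at 2.22 ± 0.90 (SE, adjusted p = 0.0853). Kcnd2 and Cacna1c were the 2 members for which every Sus-T library lay above every Res-T library over both conditions, beside 2.58% of all genes. Kcnq3, Clcn3 and Kcnj10 had differences of 0.14 ± 0.22, -0.18 ± 0.18 and 0.04 ± 0.21 (SE). Oligodendrocyte markers summed to 4.92% to 6.97% in Res-T with trauma and 2.43% to 4.24% in Sus-T with trauma, with 6 of 9 called lower, and 1 of 2 precursor markers was called higher. With the oligodendrocyte mean as covariate 0 members and 0 genes were called, and Kcna6 went from -0.82 to -0.25. Equal library totals gave 7 members higher and 1 lower, a fit of the 2 groups alone 8 and 2, leaving out Res-T replicate 1 with trauma 3 and 0, and leaving out Res-T replicate 2 without trauma 8 and 2. These fits called 24.0%, 32.8%, 10.3% and 27.3% of all genes, in that order.

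None of the other prefrontal comparisons called a member or any gene (0.0% of 6080 in each). At an unadjusted p under 0.05 there were 2 members and 630 genes for Sus-T against Res-T without trauma, 10 and 899 for trauma in Res-T, 1 and 91 for trauma in Sus-T, and 5 and 371 for the difference between the trauma effects. Ranges were apart, with higher and lower values in turn, for 4 and 0 members without trauma (14.9% of all genes, 8.16% and 6.74%), 2 and 2 for trauma in Res-T (13.1%, 5.2% and 7.88%) and 1 and 1 for trauma in Sus-T (8.03%, 4.42% and 3.6%). Without trauma, Kcnd2 (1.95 ± 0.69 SE, adjusted p = 0.378), Cacna1c (1.43 ± 0.56 SE), Clcn5 (0.63 ± 0.35 SE) and Kcna3 (-1.32 ± 0.74 SE) had the smallest p. For trauma in Res-T they were Kcnb2 (-3.07 ± 0.63 SE, adjusted p = 0.119), Cacnb4 (-0.74 ± 0.20 SE), Kcna6 (0.74 ± 0.23 SE) and Cacna2d2 (-1.81 ± 0.59 SE). For trauma in Sus-T they were Clcn5 (-0.77 ± 0.35 SE), Kcnj10 (0.28 ± 0.24 SE), Kcnd2 (0.77 ± 0.69 SE) and Clcn7 (-0.44 ± 0.45 SE), and for the difference between trauma effects Kcnb2 (3.48 ± 0.96 SE, adjusted p = 0.774), Clcn5 (-1.50 ± 0.46 SE), Cacnb4 (0.79 ± 0.31 SE) and Kcna3 (2.50 ± 0.99 SE). Res-T replicate 4 without trauma stood apart: its oligodendrocyte markers summed to 8.13%, beside 3.0% to 3.61% in the other 3 libraries of its group. Without it, trauma in Res-T called 588 of 6080 genes, or 9.67%, and 6 of 27 members, Kcna6 higher and Kcnb2, Kcna3, Cacna2d2, Cacnb2 and Cacnb4 lower. Leaving out any other single library called 0 genes for trauma in Res-T, and so did the oligodendrocyte covariate. Whether the markers of that library bear on this count was not tested.

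The 24 members with values in both regions can be set side by side for the comparison with the most calls in each, amygdala without trauma and prefrontal cortex with trauma. The former comparison called 11 of them, beside 27.4% of all amygdala genes, and the latter 4, beside 23.0% of all prefrontal genes. Cacna1c rose in both (1.35 and 2.93 on the log2 scale), as did Cacna2d1 (1.23 and 0.98), and Kcna6 fell in both (-1.37 and -0.82). Scn3b and Cacnb2 had close values, 2.27 and 2.22 for Scn3b and 2.05 and 2.15 for Cacnb2, called in the amygdala only. Kcnj16 (1.90 and 0.22) and Kcnj10 (-0.61 and 0.04) were called in the amygdala only too, and the difference between regions was not tested.

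Proteins that anchor or assist these channels were described from lists of partner genes. Their counts are read against the shares of all genes called, which were 27.4% in the amygdala without trauma (12.4% higher, 15% lower) and 6.18% for trauma in Res-T amygdala (3.3% higher, 2.88% lower). Without trauma in the amygdala, 7 auxiliary proteins outside the channel symbols were higher and 1 lower of 9, and 3 genes of calcium release and store-operated entry were higher of 9. Of the anchors and adhesion proteins of the axon initial segment and node, 2 were higher and 4 lower of 11. Other anion channels were higher for 3 and lower for 7 of 13, and TRP and polycystin channels were higher for 1 and lower for 4 of 8. The 4 partners with the smallest p all fell. Nfasc, the neurofascin that holds nodes and their flanking junctions together, went from 12900 ± 2640 (SD, n = 3) to 3350 ± 1010 (SD, n = 2), a difference of -1.96 ± 0.26 (SE, adjusted p = 5.97e-05). Cntn2, the adhesion partner of Kv1 channels beside the node, differed by -2.40 ± 0.33 (SE, adjusted p = 6.61e-05), Ttyh2, a Tweety-family protein, by -1.87 ± 0.25 (SE, adjusted p = 6.06e-05) and Pex5l, which regulates surface Hcn channels, by -1.61 ± 0.21 (SE, adjusted p = 5.52e-05).

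In the other comparisons fewer partners passed. For trauma in Res-T amygdala, 2 auxiliary proteins were higher and 1 lower of 9, 1 anchor was higher and 1 lower of 11, 1 of 8 TRP channels was lower and 2 of 13 other anion channels were lower. Fgf12, an intracellular modulator of sodium channels, rose from 31.4 ± 3.17 (SD, n = 3) to 88.2 ± 16.5 (SD, n = 4), by 1.45 ± 0.29 (SE, adjusted p = 0.011), while Nfasc (-1.2 ± 0.22 SE), Ano4 (-0.99 ± 0.22 SE) and Pex5l (-0.80 ± 0.18 SE) fell. The difference between trauma effects was higher for Nfasc (1.87 ± 0.33 SE), Cntn2 (2.18 ± 0.41 SE), Ano4 (1.70 ± 0.33 SE) and Pex5l (1.38 ± 0.27 SE). In the prefrontal cortex with trauma, Ttyh2 (-1.67 ± 0.29 SE, adjusted p = 0.00206), Pex5l (-0.93 ± 0.17 SE), Ano4 (-1.45 ± 0.28 SE) and Cntn2 (-1.17 ± 0.28 SE) were lower in Sus-T. There, 2 anchors were higher and 2 lower of 10, 1 auxiliary protein was higher and 1 lower of 4, 1 TRP channel was higher and 3 lower of 5, and 3 of 11 other anion channels were lower, beside 23.0% of all genes called (14% higher, 8.93% lower). The oligodendrocyte marker values given above moved with these partners, and their part in the result was not tested.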

How the data were processed

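RNA of sorted cells was sequenced, and the authors deposited a normalized signal per gene and library, whose normalization method is not given in the sources used here. Per the submitters' processing notes, bcl2fastq 2.20, Salmon 1.2 and GRCm38.p6 were used. Libraries were grouped by their labels. For each region, log2(value + 1) of all genes was fitted with limma 3.58.1 in R 4.3.3, with 4 groups, a mean-variance trend and robust variance estimation, and 5 contrasts were taken. A gene was called at a Benjamini-Hochberg adjusted p under 0.05 over all genes of the region. Fold changes are on the log2(value + 1) scale, which understates changes of low genes. In the log2 values, the amygdala libraries held 1 exact linear relation and the prefrontal libraries 2, which the 9 residual degrees of freedom do not allow for. The spread between libraries may therefore be understated, and the p-values given here may be too small. The script was tested on simulated data.

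Alternatives were quantile normalization, equal library totals, a pseudocount of 10, a mean of at least 10, a replicate block, the mean of oligodendrocyte markers as a covariate, a fit of the compared groups alone and leaving out each library. Named genes were the members, with the 4 partners of smallest p in each comparison with calls, and 3 members are counted but not reported here. The members and lists were chosen with earlier results of these data known. Tables were handled with Python 3.11.15 and pandas 2.3.3. Promoters came from RefSeq, and 18 members without an entry are named only. Sequencing depth is unknown, so no counting interval is given.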

Additional observations from a re-analysis of the deposited data

Results flagged for a closer look

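In groups of 4 libraries, 9 of 170 gene and group combinations held 1 library far from the other 3, and 8 of them are given here. Chance flags about 1 in 20 such groups. In the amygdala, Res-T replicate 2 with trauma was at 147 for Cacna1d (others 136 to 137) and at 7.6 for Kcnh5 (others 50.4 to 57.2). Res-T replicate 3 with trauma was at 239 for Cacng4 (others 86.9 to 109) and at 17.4 for Kcnh8 (others 1.82 to 4.41). Among the Sus-T libraries with trauma, replicate 2 was at 411 for Clcn5 (others 261 to 273), replicate 4 at 7.26 for Kcns3 (others 1.61 to 2.3) and replicate 1 at 261 for Kcnt2 (others 84 to 105). In the prefrontal cortex, Sus-T replicate 2 with trauma was at 126 for Cacna2d2 (others 34.5 to 48.2).

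By limma's interaction contrast, 4 of 58 amygdala members, or 6.9%, had a trauma effect that was not the same in Sus-T as in Res-T. That share is near the 6.74% of all genes. The log2 difference was 1.01 for Kcna6 (adjusted p = 0.0189), -1.80 for Kcnc1 (adjusted p = 0.0414), -1.79 for Kcnma1 (adjusted p = 0.00934) and -1.39 for Kcnip3 (adjusted p = 0.0439). With the oligodendrocyte covariate, or without Sus-T replicate 1 without trauma, 0 members were called. Under equal library totals or quantile normalization, 0 members were called higher.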

How the results depend on the processing

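With the oligodendrocyte covariate, members called went from 29 to 1 (amygdala without trauma), 0 to 1 (amygdala with trauma), 4 to 0 (difference of trauma effects) and, in the prefrontal cortex with trauma, 6 to 0, and Cacna2d1 (-1.35) and Kcnj2 (1.37) changed sign. The fits with the covariate called 0.517%, 0.182%, 0.0203% and 0.0% of all genes, in that order. The cause was not tested. A pseudocount of 10 or a fit of the 2 groups alone gave 5 in place of 8 for trauma in Res-T amygdala, and the latter gave 10 in place of 6 in the prefrontal cortex with trauma. Of all genes, 6.21%, 6.4% and 32.8% were called in these fits, in that order. Leaving out 1 library gave 20 to 36 members in the amygdala without trauma, 0 to 1 with trauma, 1 to 9 for trauma in Res-T, 0 to 0 for trauma in Sus-T and 0 to 6 for the difference of effects. In the prefrontal cortex the ranges were 0 to 0, 3 to 10, 0 to 6, 0 to 0 and 0 to 0 in the same order. The shares of all genes called ranged with them. In the amygdala they were 15.9% to 32.3%, 0.0% to 0.122%, 1.02% to 7.33%, 0.0101% to 2.91% and 0.598% to 8.21%. In the prefrontal cortex they were 0.0% to 0.872%, 10.3% to 27.3%, 0.0% to 9.67%, 0.0% to 0.0493% and 0.0% to 0.197%. Deviations from group means were correlated between same-numbered libraries. Over 16 pairs the amygdala correlations lay between -0.446 and 0.159 and the prefrontal ones between -0.395 and 0.346, with 3 of 16 above 0.1 in each. They cannot decide whether same-numbered libraries are paired. In a group of 2 libraries the deviations are exact opposites, and the values hold the linear relations named above. The best-correlating library of another group had the same number for 2 of 13 and 1 of 13 libraries. With a replicate block, 27, 0, 10, 0 and 2 amygdala members and 0, 5, 0, 0 and 0 prefrontal members were called. Of all genes, that fit called 25.4%, 0.101%, 6.86%, 0.0203% and 4.69% in the amygdala. In the prefrontal cortex it called 0.0%, 17.4%, 0.0%, 0.0% and 0.0%. Depth is unknown, so limits for low genes cannot be given.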
